A study of Mus musculus with 18 samples.

Results

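The genes described here are 38 mouse genes of ribosome biogenesis, the process by which ribosomal RNA is transcribed, cut, modified and joined with ribosomal proteins in the nucleolus. They were given as a list of gene names, with no threshold on their values, and each of the 38 matched exactly 1 row of the expression table, out of 54831 genes with a unique identifier. They fall into 6 role groups. There are 6 genes of nucleolar proteins, 4 of RNA polymerase I, 9 of small-subunit assembly and 11 of large-subunit assembly. A further 4 belong to the box C/D and 4 to the box H/ACA ribonucleoproteins. RNA came from wild-type mouse kidney, after sham surgery or after transplantation of a kidney that had been stored cold, and was taken at 3 times, day 1, day 7 and day 14. Sham kidneys were taken separately on each day, which gave 6 groups of 3 libraries. For every group, sham included, the labels further list cells of rat proximal tubule and a diabetes model with ischemia and reperfusion, neither of which appears in the sample titles, so grouping rests on the titles and per-sample treatment labels. Strain, sex, donor and time in the cold are not given there. Libraries carry replicate numbers, with no word on whether each stands for a separate animal, so p-values reflect the spread among libraries only, and that spread may be technical.

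In a growing or repairing cell, RNA polymerase I transcribes the large ribosomal RNA precursor, and small nucleolar ribonucleoproteins guide its chemical modification: box C/D particles add methyl groups and box H/ACA particles make pseudouridine. Large sets of assembly factors then process the precursor into the small and the large ribosomal subunit. The transcription factor MYC is known to raise transcription of many of these genes, and tubular epithelium of the kidney is known to re-enter the cell cycle after injury.

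Values are FPKM as deposited, fragment numbers corrected for gene length and library total, so levels can be compared between genes. Their sums per library ran from 386876 to 524362, depth is unknown, and 15278 genes at or above 1 FPKM in at least 3 libraries were tested. All 38 genes passed this filter in sham libraries alone, and the lowest value of any of them in any library was 1.04 FPKM. Fold changes are transplant over sham on the log2(FPKM + 1) scale, given with the standard error (SE); changes of low genes come out too small on it. A gene was called higher or lower at an adjusted p below 0.05 from limma, adjusted over all genes tested. Over all genes the median log2 fold change was 0.31, 0.41 and 0.27 at the 3 days, and median-of-ratios scaling, which balances all genes, brought it to 0.03, 0.02 and 0.02. The mitochondrial chromosome accounted for 29.3% ± 0.837, 30.3% ± 0.627 and 30.7% ± 0.730 (SD, n = 3) of the FPKM sum in sham and 22.0% ± 4.39, 16.5% ± 1.84 and 25.7% ± 2.42 in transplant. Its share of fragments, estimated from gene lengths, was smaller, at 9.42% to 10.9% in sham and 3.70% to 8.21% in transplant libraries. Without its genes the median log2 fold change over all genes was still 0.28, 0.34 and 0.24 at the 3 days. Because all genes shifted on FPKM, counts under median-of-ratios scaling stand beside the main ones. Markers of proximal tubule, podocyte, thick limb and collecting duct were all above 0 in every group, as the tissue label but not the cell line label would have it.

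Ribosome biogenesis genes were higher in transplanted kidney at day 1, less so at day 7 and little different from sham at day 14. At day 1, 36 of the 38 rose and 0 fell (94.7% higher, beside 29.6% higher and 9.56% lower of all genes tested), and the median log2 fold change was 1.10, from 0.37 for Rrs1 to 2.0 for Nop56. At day 7, 30 rose and 0 fell (78.9%, beside 35.5% higher and 6.01% lower of all genes), with a median of 0.71. At day 14, 6 rose (15.8%, beside 22.3% of all genes) and 1, Nhp2, fell (5.12% of all genes were lower), with a median of 0.24. Relative to the median of all genes, the members' median stood at 0.79, 0.30 and -0.03 at the 3 days.

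The day 7 count depended on the scaling. Under median-of-ratios scaling 28 of the 38 genes were higher at day 1 (73.7%, beside 14.7% of all genes), 8 at day 7 (21.1%, beside 11.6%) and 2 at day 14 (beside 11.5%), with Nhp2 lower at day 14 (beside 11.1% of all genes lower). The members' median log2 fold change on that scale was 0.74, 0.29 and -0.04. The 8 that kept the day 7 call were Npm1, Mybbp1a, Ddx21, Gnl3, Nop56, Nop58, Bysl and Nop2. The 8 that were called at day 1 on FPKM and not on that scale were Polr1c, Gar1, Nop10, Nop14, Tsr1, Nob1, Wdr12 and Ddx18.

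**Figure D1:**
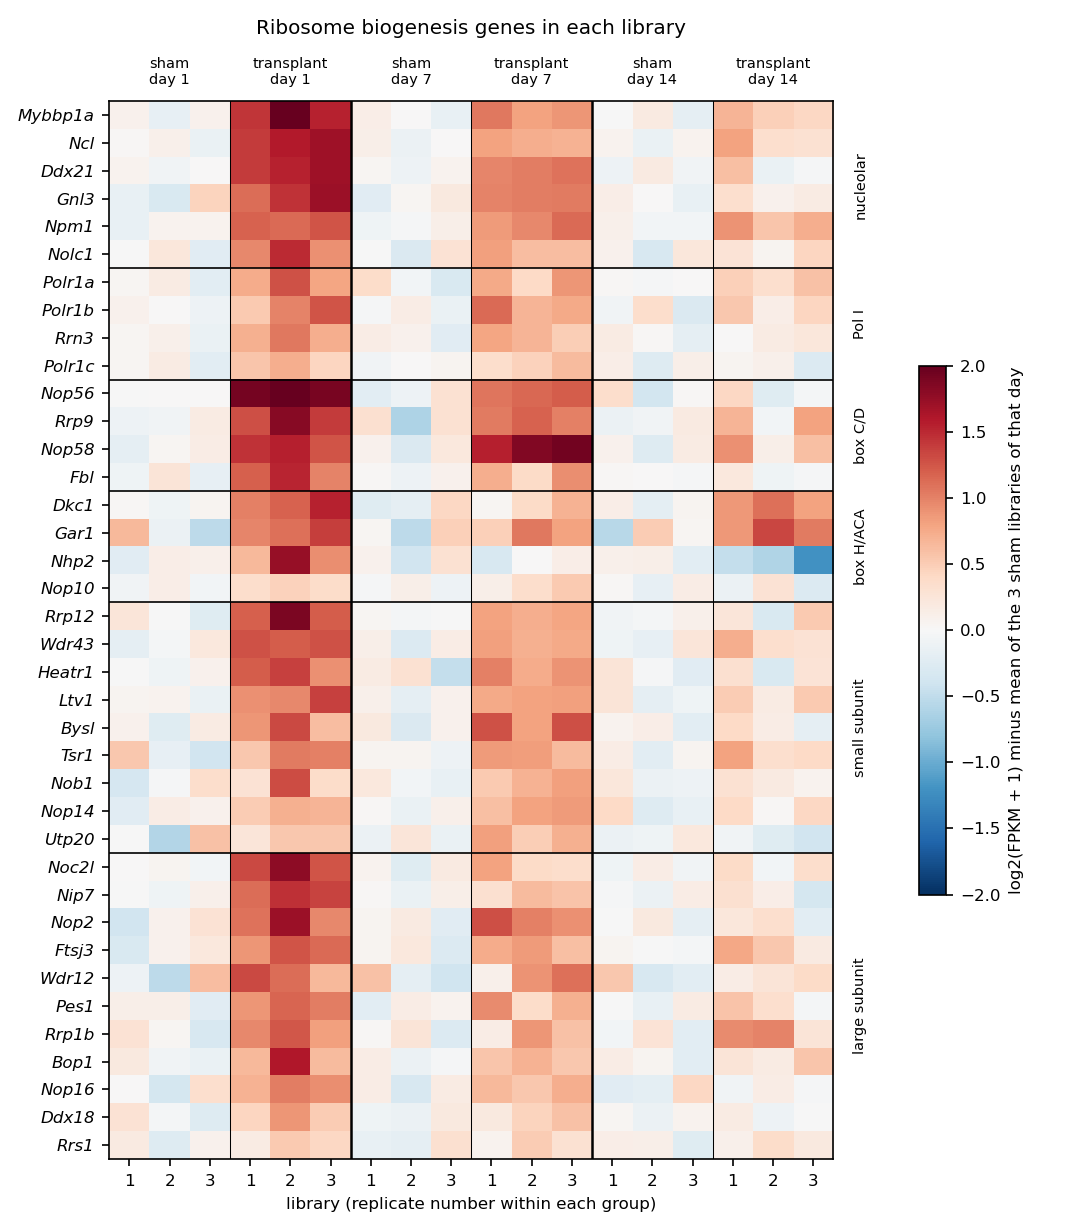
Each row is 1 of the 38 genes, grouped by role, and each column 1 of the 18 libraries; colour gives log2(FPKM + 1) minus the mean of the 3 sham libraries of that day, on a scale that ends at -2 and 2. Transplant libraries of day 1 are red in nearly every row, those of day 7 paler, and those of day 14 mostly pale, with the 3 libraries clearly red for Npm1, Dkc1 and Gar1 and blue for Nhp2.

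The libraries themselves show the same order. The median FPKM over the 38 genes was 7.60, 7.03 and 7.58 in the 3 sham libraries of day 1 and 12.7, 16.9 and 14.2 in the transplant libraries. It was 7.00, 6.03 and 6.66 in sham and 11.2, 11.6 and 11.3 in transplant at day 7. At day 14 it was 7.91, 6.69 and 6.80 in sham and 9.08, 8.79 and 8.58 in transplant. Groups did not overlap at any day, and the gap narrowed from day 1 to day 14. The second transplant library of day 1 held the highest value of its group for 27 of the 38 genes, and without it 32 of them were called at day 1.

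Gene by gene, all 3 transplant libraries lay above all 3 sham libraries for 35 genes at day 1 (beside 37.9% of all genes), for 30 at day 7 (beside 48.5%) and for 10 at day 14 (beside 31.5%), and all below for Nhp2 alone at day 14 (beside 7.32%). At day 1 and day 7 none lay all below, beside 11.9% and 8.74% of all genes. The commonest course, in 26 genes, was a rise at day 1 and day 7 and no call at day 14. Npm1, Ncl and Mybbp1a rose on every day, and Dkc1, Gar1 and Rrp1b rose at day 1 and day 14 but were not called at day 7. Nop10, Ddx18 and Wdr12 were called at day 1 and on no other day, Utp20 at day 7 and on no other, Nhp2 rose at day 1 and fell at day 14, and Rrs1 was not called at any day. Several calls near the threshold were lost when single libraries were left out. Among them were Rrp1b at day 14, Nop10 and Wdr12 at day 1, and Utp20, Nip7 and Nop16 at day 7. The fold change was largest at day 1 for 33 genes and at day 7 for 5.

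**Figure D2:**
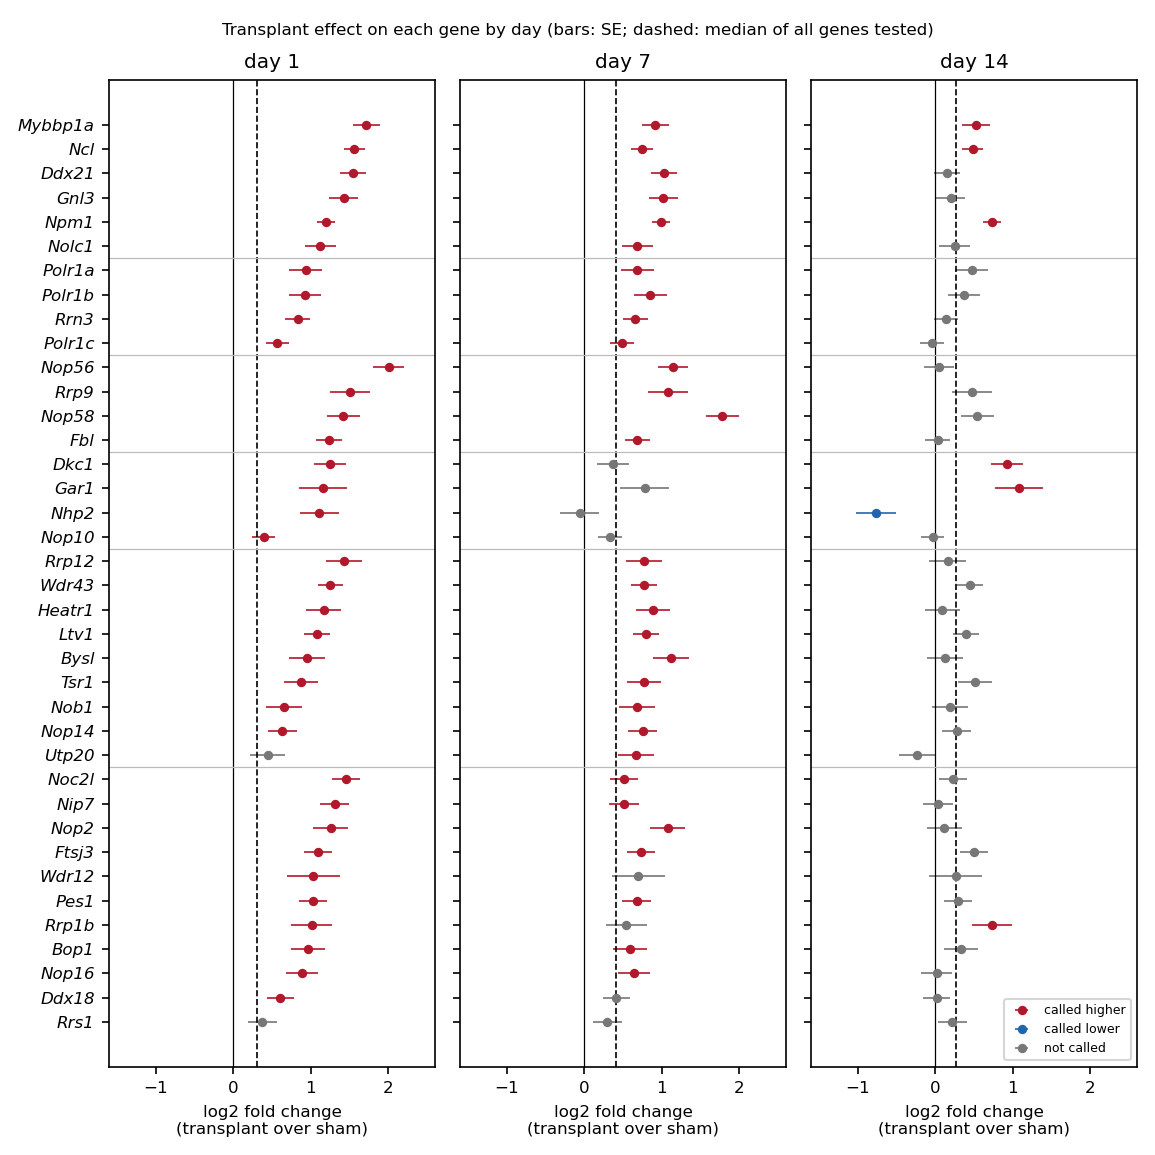
Points give each gene's log2 fold change, transplant over sham, at day 1, day 7 and day 14, with bars of 1 SE; red points were called higher, blue lower and grey neither, and the dashed line is the median of all genes tested. The cloud of points moves left from day 1, where nearly all lie right of the dashed line, to day 14, where they spread around it from Nhp2 at -0.76 to Gar1 at 1.08.

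Promoter windows of these genes are shown because most of them moved together at day 1. RefSeq windows on GRCm38.p6, of 300 bases from 250 before to 50 after the annotated start, were found for 33 of the 38 genes (37 windows). They were searched on both strands for 3 motifs. The E-box, CACGTG, is its own reverse complement and is known as a site of MYC and MAX. The motif of ETS factors was CCGGAAG. The motif of YY1 was AAGATGGC. The 4 windows printed are those of Rrn3, with E-box and ETS matches, Mybbp1a, with an E-box and a rise on every day, Nhp2, the gene that fell at day 14, and Nop56, which had the largest rise and no match. Matches are in capitals, ETS matches of Rrn3 as the reverse complement, and each window reads 5′ to 3′ on the strand of the gene.
Rrn3 (chr16:13780449-13780748, plus strand): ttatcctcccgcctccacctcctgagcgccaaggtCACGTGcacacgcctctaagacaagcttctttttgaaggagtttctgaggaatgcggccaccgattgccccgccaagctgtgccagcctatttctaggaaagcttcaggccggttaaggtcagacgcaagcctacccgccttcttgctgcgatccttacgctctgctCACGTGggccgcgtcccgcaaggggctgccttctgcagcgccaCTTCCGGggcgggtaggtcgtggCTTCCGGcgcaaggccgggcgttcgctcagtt
Mybbp1a (chr11:72441077-72441376, plus strand): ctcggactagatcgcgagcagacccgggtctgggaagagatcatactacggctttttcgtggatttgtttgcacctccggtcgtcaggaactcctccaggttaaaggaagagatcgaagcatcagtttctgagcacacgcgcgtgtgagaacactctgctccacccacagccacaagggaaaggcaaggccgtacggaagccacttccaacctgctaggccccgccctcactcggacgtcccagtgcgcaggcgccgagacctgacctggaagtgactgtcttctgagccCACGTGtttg
Nhp2 (chr11:51619523-51619822, plus strand): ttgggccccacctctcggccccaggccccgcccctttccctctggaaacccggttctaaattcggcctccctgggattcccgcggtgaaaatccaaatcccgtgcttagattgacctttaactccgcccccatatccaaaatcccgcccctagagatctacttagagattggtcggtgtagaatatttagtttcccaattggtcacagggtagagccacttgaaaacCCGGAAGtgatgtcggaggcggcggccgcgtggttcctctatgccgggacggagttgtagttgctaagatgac
Nop56 (chr2:130274162-130274461, plus strand): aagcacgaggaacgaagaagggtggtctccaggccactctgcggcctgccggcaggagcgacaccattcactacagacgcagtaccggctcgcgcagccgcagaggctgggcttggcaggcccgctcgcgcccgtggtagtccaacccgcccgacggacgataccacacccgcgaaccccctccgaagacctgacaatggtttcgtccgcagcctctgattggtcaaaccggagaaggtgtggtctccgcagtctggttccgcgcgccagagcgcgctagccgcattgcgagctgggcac

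The E-box stood in 8 of the 37 windows (21.6%), beside 7.15% of all 32851 RefSeq windows and 9.76% of the 13293 windows of tested genes. Its holders were Ltv1, Mybbp1a, Nop2, Pes1, Rrn3, Tsr1, Utp20 and Wdr43. The ETS motif stood in 12 windows (32.4%) of 11 genes, beside 8.86% of all windows and 16.7% of those of tested genes. Overlapping windows of Noc2l, counted separately, hold the same ETS site. The YY1 motif stood in 1 window, that of Ftsj3 (2.70%, beside 2.75% and 4.24%). The median log2 fold change of genes with the E-box was 1.05, 0.77 and 0.34 at day 1, day 7 and day 14, and that of genes without it 1.11, 0.70 and 0.22. For the ETS motif it was 1.12, 0.68 and 0.14 with and 1.03, 0.74 and 0.28 without. These values describe letters in a window and were not tested.

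All 6 genes of nucleolar proteins rose at day 1 and day 7, and 3 of them at day 14 (6, 4 and 1 under median-of-ratios scaling), with medians of 1.48, 0.95 and 0.37. Npm1 (nucleophosmin, chr11:33152287-33163206, a histone and pre-ribosome chaperone) had the highest level of all members. It measured 81.2, 94.1 and 94.3 FPKM in sham and 205, 197 and 216 in transplant at day 1. At day 7 the values were 90.0, 93.9 and 103 in sham against 174, 187 and 211, and at day 14 103, 92.0 and 91.3 against 178, 141 and 158. Every transplant library exceeded every sham library at each day. The log2 fold change of Npm1 was 1.19 ± 0.12 (limma adjusted p = 3.44e-07), 0.99 ± 0.12 (5.43e-06) and 0.73 ± 0.12 (0.000214) at the 3 days, and the calls held under median-of-ratios scaling. Npm1 shares at least 95% identity over at least 200 bases with 4 annotated pseudogenes, so its FPKM may depend on how shared reads were assigned.

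Mybbp1a (chr11:72441355-72451768), a nucleolar protein that binds MYB and represses some transcription factors, had the largest change of this group. Its values at day 1 were 11.7, 9.71 and 11.7 FPKM in sham and 31.3, 53.5 and 33.7 in transplant. At day 7 they were 11.8, 10.8 and 9.64 against 23.5, 19.5 and 20.6, and at day 14 10.9, 12.5 and 9.57 against 18.1, 15.6 and 15.0. The groups did not overlap at any day, and the second transplant library of day 1 was the highest of all. The log2 fold change was 1.72 ± 0.18 at day 1 (limma adjusted p = 5.03e-07), 0.92 ± 0.18 at day 7 (0.000563) and 0.52 ± 0.18 at day 14 (0.0338). The day 14 call was lost under median-of-ratios scaling (adjusted p = 0.338) and without any 1 of 4 libraries (sham replicate 1 or 3, transplant replicate 1 or 2 of day 14; adjusted p from 0.056 to 0.121).

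Ncl (nucleolin, chr1:86344719-86359400), an RNA-binding protein of the nucleolus, also rose on every day. It measured 31.6, 33.5 and 28.3 FPKM in sham and 83.6, 94.9 and 103 in transplant at day 1, a log2 fold change of 1.56 ± 0.14 (limma adjusted p = 8.79e-08). At day 7 values were 35.2, 29.7 and 32.5 against 57.4, 54.5 and 53.2 (0.75 ± 0.14, adjusted p = 0.00043). At day 14 they were 30.6, 26.3 and 30.4 against 51.3, 36.9 and 35.9 (0.48 ± 0.14, adjusted p = 0.0158). Transplant libraries lay above sham at each day, with 1 day 14 library well above the other two. The day 14 call was lost without that library (adjusted p = 0.0902) or without the second sham library of day 14 (0.0714), and the day 7 and day 14 calls under median-of-ratios scaling (adjusted p = 0.181 and 0.435). The RNA helicase Ddx21, the GTPase Gnl3 (nucleostemin) and the phosphoprotein Nolc1 rose by 1.54, 1.43 and 1.12 at day 1 and by 1.02, 1.02 and 0.68 at day 7, and none of these 3 was called at day 14. The day 7 call of Nolc1 was lost without the second sham library of that day (adjusted p = 0.0644).

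The 4 genes of RNA polymerase I rose at day 1 and day 7, with medians of 0.88 and 0.67, and none was called at day 14 (3, 0 and 0 under median-of-ratios scaling). Polr1c (chr17:46243920-46248054), a subunit shared with RNA polymerase III, was the most abundant. Its sham libraries of day 1 held 15.4, 17.0 and 12.8 FPKM and its transplant libraries 22.4, 25.4 and 20.5, a log2 fold change of 0.57 ± 0.15 (limma adjusted p = 0.00665). At day 7 values were 12.1, 12.8 and 13.3 against 16.5, 17.8 and 20.2 (0.48 ± 0.15, adjusted p = 0.0187), and at day 14 15.5, 11.7 and 15.5 against 14.6, 15.2 and 11.5 (-0.04 ± 0.15, adjusted p = 0.873). Groups stood apart at day 1 and day 7 and overlapped at day 14. Both calls were lost under median-of-ratios scaling (0.21 at day 1, 0.02 at day 7), and the day 7 call without the first sham library (adjusted p = 0.0591) or the third transplant library of day 7 (0.0792).

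Polr1a (chr6:71909053-71984935), the largest catalytic subunit, was the lowest of the 4. It measured 2.39, 2.67 and 1.85 FPKM in sham and 4.51, 6.92 and 4.67 in transplant at day 1 (0.93 ± 0.21, limma adjusted p = 0.00198). At day 7 the values were 3.61, 2.41 and 1.87 against 5.02, 3.69 and 5.58 (0.68 ± 0.21, adjusted p = 0.017), and at day 14 2.40, 2.30 and 2.36 against 3.68, 3.26 and 4.05 (0.47 ± 0.21, adjusted p = 0.109). Transplant libraries lay above sham at each day, including day 14, which was not called. The day 7 call was lost without any 1 of 4 libraries of that day (sham replicate 2 or 3, transplant replicate 1 or 3; adjusted p from 0.0513 to 0.0865). Polr1b, the second catalytic subunit, rose by 0.92 and 0.85 at day 1 and day 7, and Rrn3, which links the polymerase to its promoter complex, by 0.83 and 0.66. Neither was called at day 14 (0.37 and 0.14).

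Among the box C/D genes were the largest single changes at day 1 (Nop56) and at day 7 (Nop58). All 4 rose at day 1 and day 7, with medians of 1.46 and 1.11, and none was called at day 14, where the median was 0.26 (4, 2 and 0 under median-of-ratios scaling). Nop56 (chr2:130274430-130279313), a core scaffold protein of the particle whose gene holds 5 annotated snoRNA genes, had 7.89, 8.03 and 7.99 FPKM in sham and 32.9, 39.7 and 32.6 in transplant at day 1. At day 7 it had 6.36, 6.90 and 9.50 against 16.8, 17.7 and 18.6. At day 14 it had 14.0, 8.10 and 11.0 against 14.8, 8.92 and 10.4. The groups were far apart at day 1, clearly apart at day 7 and interleaved at day 14. The log2 fold change was 2.0 ± 0.19 (limma adjusted p = 2.65e-07), 1.14 ± 0.19 (0.000198) and 0.04 ± 0.19 (0.901). Nop56 shares at least 95% identity over at least 200 bases with 4 pseudogenes.

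Fbl (fibrillarin, chr7:28169710-28179269), the methyltransferase of the same particle, was the most abundant of the 4. Its day 1 values were 14.4, 18.5 and 13.6 FPKM in sham and 36.5, 45.9 and 31.4 in transplant (1.23 ± 0.16, limma adjusted p = 1.09e-05). At day 7 they were 16.6, 15.3 and 17.4 against 27.9, 21.8 and 32.4 (0.68 ± 0.16, adjusted p = 0.00325). At day 14 they were 16.7, 16.5 and 16.1 against 19.1, 15.3 and 16.1 (0.03 ± 0.16, adjusted p = 0.922). The groups overlapped at day 14 alone. Nop58, the partner of Nop56, had the largest change of any member at day 7: 2.47, 1.66 and 2.77 FPKM in sham against 8.59, 10.8 and 11.4 in transplant, a log2 fold change of 1.78 ± 0.21 (limma adjusted p = 5.27e-06). Its day 1 change was 1.42 ± 0.21 (adjusted p = 3.9e-05) and its day 14 change 0.54 ± 0.21 (adjusted p = 0.0662), which was called without the second transplant library of day 14 (adjusted p = 0.0161). Rrp9, a protein specific to the U3 particle, rose by 1.50 and 1.08 at day 1 and day 7 and was not called at day 14 (0.47), except without that same library (adjusted p = 0.0469).

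The 4 box H/ACA proteins did not move together after day 1. All 4 rose at day 1 and none was called at day 7, while at day 14 Dkc1 and Gar1 were higher and Nhp2 lower (2 higher, 0, and 1 higher with 1 lower under median-of-ratios scaling). Dkc1 (dyskerin, chrX:75095854-75109777), the pseudouridine synthase, had 5.80, 5.30 and 5.92 FPKM in sham and 12.4, 14.1 and 18.4 in transplant at day 1. At day 7 it had 5.09, 5.39 and 8.65 against 6.43, 8.37 and 10.7, and at day 14 5.13, 3.88 and 4.81 against 9.23, 11.0 and 8.76. Transplant libraries lay above sham at day 1 and day 14 and overlapped with sham at day 7, where 1 sham library was high. The log2 fold change was 1.24 ± 0.21 (limma adjusted p = 0.000114), 0.37 ± 0.21 (0.156) and 0.93 ± 0.21 (0.00288). Without that high sham library the day 7 change was called (adjusted p = 0.0413), and the day 14 change held under median-of-ratios scaling (0.65, adjusted p = 0.0294).

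Gar1 (chr3:129824912-129831396), a core protein of the mature H/ACA particle, had 8.05, 4.32 and 3.0 FPKM in sham and 10.4, 11.4 and 14.1 in transplant at day 1. At day 7 it had 3.97, 2.36 and 5.72 against 5.68, 9.04 and 7.43, and at day 14 2.54, 6.38 and 4.35 against 8.49, 12.2 and 9.62. Sham libraries spread widely, and the groups overlapped at day 7 alone. The log2 fold change was 1.15 ± 0.31 (limma adjusted p = 0.00651), 0.78 ± 0.31 (0.053) and 1.08 ± 0.31 (0.0152). The day 1 and day 14 calls were lost under median-of-ratios scaling (adjusted p = 0.0618 and 0.0797), and the day 14 call also without the first sham (0.0853) or the second transplant library of day 14 (0.0577). The day 7 change passed without any 1 of 6 libraries (sham replicate 1 or 3 of day 1, sham replicate 3 or transplant replicate 1 of day 7, sham replicate 1 or 2 of day 14; adjusted p from 0.0284 to 0.0493).

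Nhp2 (chr11:51619735-51623714), another core protein of the H/ACA particle, was the 1 member that fell. Its day 1 values were 18.8, 24.3 and 23.9 FPKM in sham and 35.4, 76.4 and 43.3 in transplant (1.11 ± 0.25, limma adjusted p = 0.00195). At day 7 they were 20.3, 14.3 and 23.8 against 15.1, 19.3 and 20.9 (-0.06 ± 0.25, adjusted p = 0.869). At day 14 they were 18.3, 18.6 and 14.5 against 11.9, 10.9 and 6.78 (-0.76 ± 0.25, adjusted p = 0.0317). Every transplant library was above sham at day 1 and every one below it at day 14. The fall was larger under median-of-ratios scaling (-1.07, adjusted p = 0.00315) and was not called without the first (adjusted p = 0.0876) or second (0.0943) sham library or the third transplant library of day 14 (0.144).

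The ratio of Nhp2 to Dkc1, chosen after these values were seen, ran from 2.66 to 4.80 in the 9 sham libraries. It was 2.86, 5.44 and 2.35 in transplant at day 1, 2.35, 2.31 and 1.96 at day 7, and 1.29, 0.993 and 0.774 at day 14. Exons of Nhp2 overlap those of Rmnd5b on the opposite strand, and the strand setting of the counting is not given in the sources used here, so reads of both genes may be mixed. Rmnd5b itself, also named after its values were seen, had 6.20, 9.07 and 4.29 FPKM in sham and 9.39, 11.0 and 9.67 in transplant at day 14 (0.60, limma adjusted p = 0.091). At day 1 Rmnd5b had 7.28, 10.5 and 9.94 in sham and 6.97, 17.6 and 11.6 in transplant. Its second transplant library was the highest there, as that of Nhp2 was. The same library was the highest of its group for 27 members, Nhp2 among them, so this match is not particular to the 2 genes. At day 7 the values of Rmnd5b were 8.07, 8.69 and 9.43 against 12.8, 12.6 and 10.4. Mixing of reads was not tested. In all, 17 members have exons that overlap a gene on the opposite strand, among them Nop56 (Idh3b) and Dkc1 (Mpp1). Sequence shared with annotated pseudogenes, by the limits given for Npm1, was found for 7 members: Npm1, Nop56, Fbl, Ddx21, Pes1, Ddx18 and Wdr12.

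Nop10 (chr2:112261926-112263269), the smallest H/ACA protein, was the most abundant of the 4 and moved least. It had 25.3, 29.4 and 25.7 FPKM in sham and 34.4, 37.1 and 34.7 in transplant at day 1 (0.39 ± 0.15, limma adjusted p = 0.0453). At day 7 the values were 22.3, 24.5 and 21.1 against 24.5, 29.2 and 33.1 (0.33 ± 0.15, adjusted p = 0.0839), and at day 14 25.8, 22.6 and 28.2 against 23.5, 31.3 and 20.8 (-0.03 ± 0.15, adjusted p = 0.9). The groups stood apart at day 1, the lowest transplant library was level with the highest sham library at day 7, and the groups overlapped at day 14. The day 1 call was lost under median-of-ratios scaling (0.02, adjusted p = 0.934) and without any 1 of 9 libraries (at day 1 sham replicate 1 or 3 or any transplant library, at day 7 sham replicate 1 or 2 or transplant replicate 2, at day 14 sham replicate 1; adjusted p from 0.0512 to 0.126). The day 7 change passed without the first transplant library of that day (adjusted p = 0.0456).

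**Figure D3:**
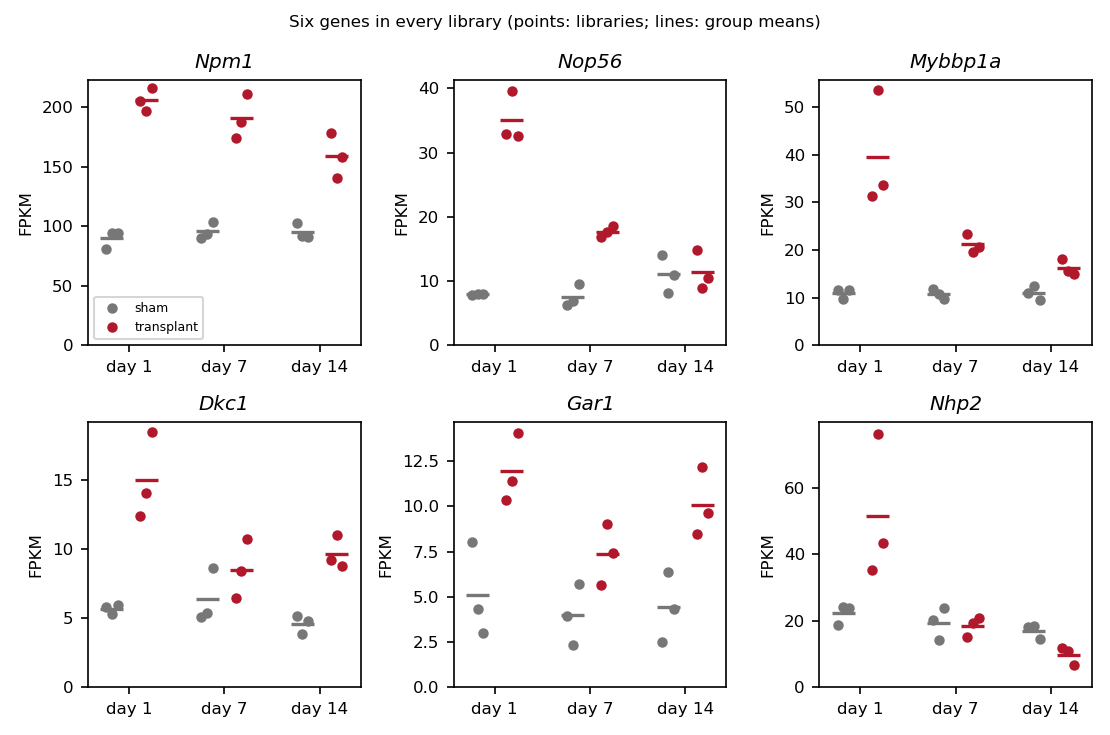
Points are the FPKM of Npm1, Nop56, Mybbp1a, Dkc1, Gar1 and Nhp2 in every library at day 1, day 7 and day 14, grey for sham and red for transplant, with lines at the group means. Npm1 and Mybbp1a stay above sham on every day, Nop56 meets its sham level at day 14, and at day 14 Dkc1 and Gar1 lie above sham while Nhp2 lies below.

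Of the 9 genes of small-subunit assembly, 8 rose at day 1, 9 at day 7 and 0 at day 14, with medians of 0.95, 0.77 and 0.18 (5, 1 and 0 under median-of-ratios scaling). Wdr43 (chr17:71615895-71659031), a part of the early small-subunit complex, was the most abundant, with 6.11, 6.82 and 8.31 FPKM in sham and 18.5, 17.6 and 18.4 in transplant at day 1. At day 7 it had 7.91, 5.84 and 8.15 against 13.5, 12.5 and 12.9, and at day 14 6.79, 6.40 and 8.79 against 12.6, 9.38 and 9.13. The groups did not overlap at any day. The log2 fold change was 1.25 ± 0.17 (limma adjusted p = 1.13e-05), 0.76 ± 0.17 (0.00165) and 0.45 ± 0.17 (0.054). The day 14 change passed without any 1 of 3 libraries: sham replicate 2 of day 7, or the third sham or transplant library of day 14 (adjusted p from 0.0321 to 0.048).

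Rrp12 (chr19:41862851-41896173), which takes part in export and maturation of both subunits in yeast, had the largest change of this group. It measured 2.41, 1.85 and 1.44 FPKM in sham and 5.57, 9.66 and 5.63 in transplant at day 1 (1.43 ± 0.23, limma adjusted p = 9.26e-05). At day 7 the values were 1.77, 1.62 and 1.69 against 3.73, 3.44 and 3.64 (0.77 ± 0.23, adjusted p = 0.0136), and at day 14 1.51, 1.55 and 1.83 against 2.11, 1.13 and 2.78 (0.16 ± 0.23, adjusted p = 0.653). The transplant values of day 7 were close together and well above sham, while those of day 14 lay on both sides of it. The other processome and assembly factors Heatr1, Ltv1, Bysl, Tsr1, Nob1 and Nop14 rose by 1.16, 1.08, 0.95, 0.87, 0.65 and 0.63 at day 1. Bysl (1.12), Nop14 (0.75) and Nob1 (0.68) had their largest change at day 7. The day 1 calls of Nop14 and Nob1 were lost without the first sham library (adjusted p = 0.0615 and 0.153), that of Nob1 also without the second sham (0.0773) or second transplant library (0.222), and the day 7 call of Nob1 without replicate 3 of either group, sham replicate 2 or transplant replicate 2 (0.0646 to 0.0897).

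Utp20 (chr10:88746607-88826804), a component of the processome, was called at day 7 alone. It had 6.42, 3.98 and 10.2 FPKM in sham and 7.84, 9.80 and 9.87 in transplant at day 1, where 1 sham library exceeded all transplant libraries (0.44 ± 0.23, limma adjusted p = 0.139). At day 7 it had 5.04, 6.76 and 4.98 against 10.5, 8.16 and 9.68 (0.67 ± 0.23, adjusted p = 0.0272). At day 14 it had 6.13, 6.26 and 7.98 against 6.35, 5.55 and 4.91 (-0.24 ± 0.23, adjusted p = 0.476). Without the high sham library the day 1 change was called (adjusted p = 0.0126), and the day 7 call was lost without any 1 of 4 libraries of that day (sham replicate 1 or 3, transplant replicate 1 or 3; adjusted p from 0.0671 to 0.0885).

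Of the 11 genes of large-subunit assembly, 10 rose at day 1, 7 at day 7 and 1 at day 14, with medians of 1.03, 0.59 and 0.22 (8, 1 and 0 under median-of-ratios scaling). Pes1 (pescadillo, chr11:3963975-3980004), which with Bop1 and Wdr12 forms the PeBoW complex, was the most abundant. Its day 1 values were 11.3, 11.2 and 8.67 FPKM in sham and 20.0, 24.3 and 22.1 in transplant (1.03 ± 0.18, limma adjusted p = 0.000246). At day 7 they were 8.11, 10.6 and 10.0 against 19.3, 12.6 and 16.2 (0.68 ± 0.18, adjusted p = 0.00764), and at day 14 8.45, 7.57 and 9.61 against 13.2, 11.0 and 8.23 (0.29 ± 0.18, adjusted p = 0.259). The groups overlapped at day 14 alone. The partners Bop1 and Wdr12 rose by 0.96 and 1.03 at day 1. At day 7 Bop1 rose by 0.59 and Wdr12 was not called (0.70 ± 0.34, adjusted p = 0.107). The Bop1 call at day 7 was lost without sham replicate 2 or 3 or any transplant library of that day (adjusted p from 0.0638 to 0.108), and the Wdr12 call at day 1 without replicate 1 or 2 of either group (0.0621 to 0.116). Without replicate 1 of either group of day 7, Wdr12 was called there (0.0399 and 0.042).

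Noc2l (chr4:156236010-156247616), a nucleolar protein that also inhibits histone acetyltransferases, had the largest change of this group. It had 8.86, 9.11 and 8.38 FPKM in sham and 23.4, 32.9 and 22.4 in transplant at day 1 (1.46 ± 0.18, limma adjusted p = 4.93e-06). At day 7 the values were 9.05, 7.09 and 9.84 against 15.7, 11.5 and 11.3 (0.51 ± 0.18, adjusted p = 0.0306), and at day 14 8.38, 10.1 and 8.53 against 12.0, 8.65 and 11.7 (0.22 ± 0.18, adjusted p = 0.381). Transplant libraries were far above sham at day 1, just above at day 7 and mixed with sham at day 14. The day 7 call was lost without sham replicate 1 or 2 or transplant replicate 1 of that day (adjusted p from 0.0506 to 0.149). Nip7, Nop2, Ftsj3, Rrp1b, Nop16 and Ddx18 rose by 1.31, 1.26, 1.09, 1.01, 0.88 and 0.61 at day 1. Rrp1b was also called at day 14 (0.73 ± 0.26, adjusted p = 0.0445), a call lost without sham replicate 1 or 3 or transplant replicate 1 or 2 of day 14, or any 1 of 4 libraries of other days (adjusted p from 0.0521 to 0.143). The Ddx18 call at day 1 was lost without the third sham (adjusted p = 0.0588) or second transplant library (0.0586). At day 7 the Nip7 call was lost without any 1 sham library or transplant replicate 2 or 3 (limma adjusted p from 0.0514 to 0.127). That of Nop16 was lost without sham replicate 2 (0.0984) or transplant replicate 3 of day 7 (0.0584).

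Rrs1 (chr1:9545408-9547455), known in yeast for incorporation of the 5S particle, was the 1 member not called at any day. It had 9.74, 6.95 and 9.10 FPKM in sham and 9.69, 12.7 and 11.7 in transplant at day 1, 7.77, 7.62 and 11.1 against 9.24, 12.9 and 11.0 at day 7, and 8.94, 8.77 and 6.63 against 8.73, 10.6 and 9.36 at day 14. The groups overlapped at each day, and the log2 fold changes were 0.37, 0.30 and 0.22 (limma adjusted p = 0.118, 0.205 and 0.401).

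The change of the transplant effect between days was tested within the same fit, in which each day's effect is taken against its own sham group and shared between the differences it enters. From day 1 to day 14 the effect moved down in 13 of the 38 genes and up in 0 (beside 5.05% and 5.2% of all genes). The 5 largest were Nop56 (-1.96 ± 0.28, limma adjusted p = 0.000183), Nhp2 (-1.87 ± 0.36, adjusted p = 0.00239), Ddx21 (-1.39 ± 0.23, adjusted p = 0.000871), Nip7 (-1.27 ± 0.27, adjusted p = 0.00503) and Rrp12 (-1.27 ± 0.33, adjusted p = 0.0184). From day 1 to day 7 it moved down in 2, Noc2l (-0.95, adjusted p = 0.0415) and Ncl (-0.81, adjusted p = 0.0211), and up in 0 (beside 1.31% and 3.06% of all genes). Under median-of-ratios scaling 12 members moved down from day 1 to day 14 (beside 4.47% of all genes, with 5.64% up), 4 from day 1 to day 7 (beside 1.73%, with 2.01% up) and 0 from day 7 to day 14 (beside 0.131%, with 0.419% up), and 0 moved up. From day 7 to day 14 limma called 0 members, beside 0.262% lower and 0.353% higher of all genes. At an unadjusted p below 0.05, 12 members were lower and 0 higher, beside 8.10% and 3.84% of all genes. All 38 genes had a lower fold change at day 14 than at day 1, called or not. Between the sham groups limma called 0 members in day 7 minus day 1, day 14 minus day 7 and day 14 minus day 1, with 1, 2 and 1 members at an unadjusted p below 0.05. Over all genes it called 0%, 0% and 0.00655%, with 375, 570 and 746 genes below that unadjusted p.

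Some of these genes also carry snoRNA genes: 7 members (Nop56, Nop58, Ncl, Gnl3, Wdr43, Tsr1 and Dkc1) hold 21 annotated ones between them. All 7 rose at day 1, 6 at day 7 and 2 at day 14, beside 29.6%, 35.5% and 22.3% of all genes. Under median-of-ratios scaling Tsr1 lost its day 1 call, Ncl, Wdr43 and Tsr1 their day 7 calls and Ncl its day 14 call. The median log2 fold change of the 7 was 1.42, 0.77 and 0.48, beside 1.03, 0.68 and 0.22 for the other 31. The difference between hosts and the others was not tested.

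Other genes of the pathway were mostly higher at day 1 on FPKM, and their counts at each day depended on the scaling. Of 121 other ribosome biogenesis genes, 85 rose at day 1 (70.2%, beside 29.6% of all genes), 60 at day 7 (49.6%, beside 35.5%) and 17 at day 14 (14.0%, beside 22.3%), and 0 fell, with medians of 0.75, 0.55 and 0.26. Under median-of-ratios scaling 45 were higher at day 1 (37.2%, beside 14.7% of all genes), 2 at day 7 (1.65%, beside 11.6%) and 2 at day 14 (1.65%, beside 11.5%). At day 14, 2 were lower on that scale, beside 11.1% of all genes. Among 46 other small-subunit factors 35, 29 and 2 rose (20, 1 and 0 under median-of-ratios scaling). At day 1 these included the processome proteins Wdr36 (5.70 ± 0.139 FPKM in sham, 15.6 ± 1.74 in transplant), Utp4 (7.08 ± 1.72, 23.3 ± 4.68) and Mphosph10 (5.19 ± 0.145, 13.1 ± 0.966; SD, n = 3 here and below). Among 51 other large-subunit factors 38, 26 and 10 rose (19, 1 and 2 under that scaling). Their largest change was that of Eif6, which keeps new large subunits from joining small ones, at 19.6 ± 2.35 FPKM in sham and 163 ± 49.2 in transplant at day 1, a log2 fold change of 2.95 ± 0.18 (limma adjusted p = 1e-09). Eif6 stayed higher at day 7 (1.57) and day 14 (0.96), and Las1l, an endonuclease factor of precursor cleavage, rose from 16.5 ± 2.55 to 53.8 ± 6.06 FPKM at day 1. Among 13 other RNA polymerase I genes 6, 3 and 3 rose (46.2%, 23.1% and 23.1%, below the share of all genes at day 7 and near it at day 14), and 2, 0 and 0 under median-of-ratios scaling. They include Ubtf, the upstream binding factor, with log2 fold changes of 0.49 ± 0.14, 0.82 ± 0.14 and 0.38 ± 0.14 (limma adjusted p = 0.00816, 0.000147 and 0.0437), none of them called under median-of-ratios scaling.

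Ribosomal protein genes encode the parts that are assembled. Of 79, on FPKM, 73, 76 and 64 were higher at day 1, day 7 and day 14 (92.4%, 96.2% and 81.0%, beside 29.6%, 35.5% and 22.3% of all genes), with medians of 0.84, 0.88 and 0.59. Under median-of-ratios scaling 49, 33 and 13 were higher (62.0%, 41.8% and 16.5%, beside 14.7%, 11.6% and 11.5%), so the day 14 share was then near that of all genes. Many of them have near-identical pseudogenes, so their FPKM may depend on how shared reads were assigned. Cytosolic tRNA synthetases, which load amino acids, had 19, 15 and 2 of 20 higher (95%, 75% and 10%), with medians of 0.94, 0.58 and 0.25 (15, 3 and 1 under median-of-ratios scaling). Translation initiation factors had 28, 24 and 8 of 35 higher (80.0%, 68.6% and 22.9%), and 15, 3 and 0 under that scaling. Among these factors Eif4g2 was called lower at day 14 on FPKM (171 ± 0.89 in sham, 130 ± 9.66 in transplant), beside 5.12% of all genes. The day 14 shares of both lists were near or below that of all genes on either scale. Of the mitochondrial ribosomal proteins, 13 of 60 were higher and 3 lower at day 1 (21.7% higher, beside 29.6% higher and 9.56% lower of all genes). At day 7, 10 were higher (16.7%, beside 35.5%), and at day 14, 2 were lower (beside 5.12% of all genes). Their medians were 0.25, 0.10 and -0.02. Under median-of-ratios scaling 8, 11 and 11 of the 60 were lower, beside 15.5%, 12.8% and 11.1% of all genes. The comparisons share libraries with those of the 38 genes, and differences between lists were not tested.

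**Figure D4:**
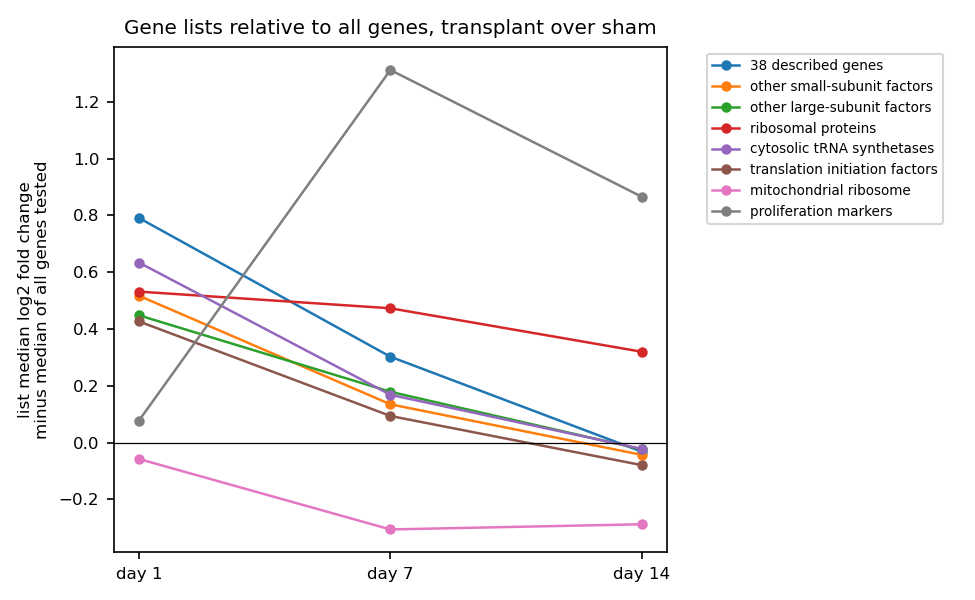
Lines give, at day 1, day 7 and day 14, the median log2 fold change of a gene list minus the median of all genes tested. The 38 genes start at 0.79, stand at 0.30 at day 7 and end at -0.03, ribosomal proteins stay above 0 throughout, mitochondrial ribosomal proteins lie below 0, and proliferation markers are highest at day 7.

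Myc, the gene of the MYC factor, was higher at each day. It had 1.46, 0.715 and 0.901 FPKM in sham and 20.1, 39.6 and 26.7 in transplant at day 1, 2.26, 1.63 and 2.18 against 11.6, 13.9 and 13.2 at day 7, and 1.15, 1.27 and 0.613 against 7.13, 3.79 and 4.97 at day 14. Its log2 fold changes were 3.84 ± 0.25, 2.20 ± 0.25 and 1.63 ± 0.25 (limma adjusted p = 1.82e-09, 2.55e-06 and 0.000112), and its effect moved down from day 1 to day 7 (-1.64, adjusted p = 0.00964) and to day 14 (-2.22, adjusted p = 0.000502). The related Mycn was not called at any day (0.25, 0.50 and -0.19, adjusted p = 0.462, 0.125 and 0.627). In the MYC network list of 10 genes, Mxd4 was also called higher at each day. Mean FPKM of Mxd4 was 13.6, 13.2 and 13.6 in sham and 20.5, 23.6 and 27.1 in transplant at day 1, day 7 and day 14. Max at day 1 and Mnt at day 7 were called higher as well.

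Marker genes of several cell types changed over the same days, and in bulk RNA fewer cells of a type and less RNA per cell cannot be told apart. Summed FPKM of 8 proliferation markers was 3.11 to 7.18 in sham and 8.65 to 15.9, 24.6 to 65.5 and 16.1 to 30.2 in transplant at the 3 days. Of the 8, 2, 8 and 5 were called higher, and the sum was highest at day 7. Proximal tubule markers (6 genes; 6, 5 and 4 called lower) summed to 2178 to 2593 in sham and to 314 to 596 at day 1, 797 to 831 at day 7 and 939 to 1477 at day 14 in transplant. Tubular injury markers (5 genes, 5 called higher at each day) were 311 to 434 in sham and 9937 to 12082, 7263 to 9646 and 5045 to 7853 in transplant. Macrophage markers (6 genes; 2, 6 and 6 called higher) were 16.8 to 29.7 in sham and 47.6 to 52.1, 206 to 430 and 126 to 269 in transplant, and fibroblast markers (5 genes; 4, 5 and 4 called higher) 16.5 to 30.7 in sham and 59.1 to 86.2, 105 to 240 and 130 to 168. Neutrophil markers (5 genes) were at most 2.93 in sham and 27.2 to 66.5, 2.87 to 14.4 and 2.45 to 5.42 in transplant at the 3 days. Ly6g was at 0 in each transplant group. T cell markers (6 genes) summed to at most 1.53 in sham, at most 0.837 in transplant at day 1 with Cd3e and Trbc2 at 0, and 6.08 to 7.26 at day 14, and B and plasma cell markers to at most 3.23 in any library. The part of these shifts in the values of the 38 genes was not tested.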

How the data were processed

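RNA of mouse kidney was measured in 18 libraries, 3 for each of 6 groups, grouped by sample title. The authors deposited FPKM per gene and library. Per the submitters' processing notes, the build was mm10 and DESeq2 was used in a role not stated; aligner, quantifier, strand setting and annotation: not given in the sources used here. Between 3.07% and 4.06% of values above 0 were smaller than 1 fragment is worth in a library of 100000000 fragments, so no reads were recovered and depth is unknown. Precision is limited by the 3 libraries per group.

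Capital N and A were missing from identifiers and symbols of the table. Restored identifiers matched GENCODE M21 in 54819 of 54848 rows, which gave symbols and coordinates on GRCm38, the assembly of mm10. The 17 rows of 7 repeated identifiers were left out. Genes at or above 1 FPKM in at least 3 libraries (15278) were fitted as log2(FPKM + 1) in R 4.3.3 by limma 3.58.1, with a mean for each of the 6 groups and robust, trended empirical Bayes, and p was adjusted by Benjamini-Hochberg within each contrast and called below 0.05. The fit was checked on simulated data with known changes.

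Members, lists and tests were chosen with earlier results of these data known. Named in full were, per role group, the member with the highest mean and the one with the largest change, members not called or called lower, and up to 5 per difference between days. Ncl, Gar1, Nop58 and Utp20 were added for their courses. Of the genes outside the 38 that the rule picks, some are given as counts only. Lists of the exosome (15 genes), noncoding snoRNA hosts (11 genes) and RNA polymerase III (21 genes) were also run and are not described here. Of the MYC network list (10 genes) only the genes named above are given. Alternatives tried were median-of-ratios scaling, the same sum in every library, no genes of the mitochondrial chromosome, other pseudocounts (0.1 and 5), other filters (none, or a mean of at least 5 FPKM), moderation without the robust option, a fit of only the groups compared, the replicate number as a block, and each library left out. Shared sequence was searched with blastn 2.17.0 on GENCODE transcripts. Tables used Python 3.11.15 and figures matplotlib 3.10.9.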

Additional observations from a re-analysis of the deposited data

Results flagged for a closer look

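In 15 cases the transplant effect on a ribosome biogenesis gene differed between days by limma's test of the difference itself, and each is a fall of the log2 fold change. Between day 1 and day 7 it was -0.81 for Ncl (adjusted p = 0.0211) and -0.95 for Noc2l (0.0415). Ncl kept this call in all but 4 of the left-out libraries and Noc2l in all but 10. With the same sum in every library both were lost (limma adjusted p = 0.0713 and 0.0959), and Noc2l also with a pseudocount of 0.1 (0.053), no filter (0.0908), only the groups compared (0.0556) or the replicate block (0.0596). Between day 1 and day 14 it was -1.96 for Nop56, -1.87 for Nhp2, -1.39 for Ddx21, -1.27 for Nip7 and -1.27 for Rrp12. It was -1.23 for Gnl3, -1.23 for Noc2l, -1.21 for Fbl, -1.19 for Mybbp1a and -1.14 for Nop2. It was -1.08 for Ncl, -1.07 for Heatr1 and -0.80 for Wdr43, with limma adjusted p from 0.000183 for Nop56 to 0.0371 for Heatr1. The calls of Heatr1, Wdr43 and Nop2 were lost without any 1 of 8, 9 and 5 libraries (adjusted p up to 0.0963, 0.0976 and 0.0803), and that of Wdr43 also under median-of-ratios scaling (0.0533). With no filter these 3 calls were lost (adjusted p = 0.0796, 0.0614 and 0.0729), as they were with only the groups compared (0.0554, 0.0777 and 0.0621), where Rrp12 was lost too (0.0618). With the same sum in every library Heatr1 and Wdr43 were lost (0.0594 and 0.0519). By role group, Ddx21, Gnl3, Mybbp1a and Ncl come from the 6 nucleolar genes, and Nop56 and Fbl from the 4 box C/D genes. Nhp2 comes from the 4 box H/ACA genes, and Rrp12, Heatr1 and Wdr43 from the 9 of the small subunit. Nip7, Noc2l and Nop2 come from the 11 of the large subunit, and no gene comes from the 4 of RNA polymerase I. For Nhp2 the fall took the gene from above its sham group to below it.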

How the results depend on the processing

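Day 1 counts of higher genes stayed within 1.5 times of 36 under every alternative run, as did the 13 genes whose effect moved down from day 1 to day 14. Under median-of-ratios scaling 8 members were higher at day 7 and 2 at day 14, and 4 effects moved down from day 1 to day 7. With the same sum in every library 12 were higher and 0 lower at day 14, 0 effects moved down from day 1 to day 7 and 3 from day 7 to day 14. Only the groups compared gave 3 higher at day 14. The fall of Nhp2 at day 14 was not called (0 lower) with a pseudocount of 5, without a filter or with the same sum. The 2 falls from day 1 to day 7 were 1 with a pseudocount of 0.1 and 1 without a filter, and a mean FPKM of at least 5 gave 1 fall from day 7 to day 14. With no filter 4 and with a pseudocount of 5 again 4 were higher at day 14. Leaving out single libraries gave 32 to 36 higher and 0 lower at day 1, 23 to 31 higher and 0 lower at day 7, and 3 to 8 higher and 0 to 1 lower at day 14 (3 without transplant replicate 1). Falls of the effect numbered 0 to 4 from day 1 to day 7 (0 without sham replicate 3 of day 1, sham replicate 1 or transplant replicate 3 of day 7, 4 without transplant replicate 1 of day 1), 0 to 3 from day 7 to day 14 (3 without transplant replicate 1 of day 14, 1 without sham replicate 2 of day 14) and 10 to 16 from day 1 to day 14; rises of the effect and sham differences stayed at 0. Snu13 at day 7, called higher on FPKM, came to -0.00338 (limma adjusted p = 0.99) when scaled by median of ratios. Same-numbered libraries did not deviate together (correlations from -0.0409 to 0.102 over 9 pairs, 1 above 0.1), so the numbers were not taken as pairs; with the replicate number as a block 1 effect moved down from day 1 to day 7, and 113 of 114 member values kept their call. The cause of these changes was not tested. Depth is unknown, so low genes such as Rrp12 and Wdr12 carry an unknown counting error.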
